A study of Homo sapiens with 3 samples.

Results

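The Mondo factors are transcription factors that couple glucose to gene expression. MLX is the common dimer partner, MLXIP (also called MondoA) and MLXIPL (also called ChREBP) are its glucose-sensing partners, and TXNIP and ARRDC4 are their classical targets. All listed peaks with a summit in the body of one of these 5 genes, or within 20 kb of one of their transcription start sites (TSSs), were taken from the BMAL1 and MAX lists. This gave 14 of the 13650 MAX peaks and 1 of the 756 BMAL1 peaks. The genes are 5 of the 20162 protein-coding genes annotated by GENCODE on hg19.

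The lists come from MDA-MB-231, an established breast adenocarcinoma line derived from a pleural effusion. The adherent cells were grown with serum and cross-linked with formaldehyde, and no other treatment is given. Chromatin was immunoprecipitated with an antibody against BMAL1 or against MAX, and input chromatin served as the control for both. There was 1 library of each kind, so no value has a replicate and no test was made. The lists rest on 13866783 tags for BMAL1, 11545865 for MAX and 29308882 for the input.

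Like MAX, the Mondo factors belong to the basic helix-loop-helix leucine zipper family, which bind E-boxes (CACGTG) as dimers. MLX pairs with the Mondo proteins and with some repressors of the MXD family and MNT, and thereby forms a branch parallel to that of MAX. When sugar phosphates rise, Mondo:MLX dimers bind carbohydrate response elements, which consist of a pair of E-box-like sequences separated by a short spacer. TXNIP, an alpha-arrestin that inhibits thioredoxin and restrains glucose uptake, and ARRDC4, its close relative, are induced in this way. BMAL1 binds E-boxes as a dimer with CLOCK.

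The sequence that carries the main result is the TXNIP promoter, because it is the only member region with a peak in both lists. It is shown on the plus strand of hg19, which is the strand of the gene, from chr1:145438236-145438485. The capitals mark the paired E-box-like elements, both upstream of the TSS at position 145438490.
TXNIP promoter: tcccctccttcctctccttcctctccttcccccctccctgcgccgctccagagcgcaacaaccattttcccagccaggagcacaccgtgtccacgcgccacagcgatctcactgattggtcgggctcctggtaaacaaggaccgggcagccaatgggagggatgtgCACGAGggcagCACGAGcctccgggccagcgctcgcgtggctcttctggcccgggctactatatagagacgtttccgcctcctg

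Both boxes of the pair, at 145438402 to 145438407 and at 145438413 to 145438418, differ from CACGTG by the same single base, T5A, counted from 1 at the first C. The other MAX peaks at a main TSS each held a canonical E-box. These are shown with 15 bases to either side, on the plus strand of hg19 and with the E-box in capitals, to allow their flanks to be compared with the TXNIP element. The E-box of the highest MAX peak of MLXIPL, which is no promoter peak, is added. They lie at chr15:98503708-98503743 for ARRDC4, chr17:40719053-40719088 for MLX, chr12:122516274-122516309 for MLXIP and chr7:73043716-73043751 for MLXIPL.
ARRDC4: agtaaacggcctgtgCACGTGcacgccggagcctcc
MLX: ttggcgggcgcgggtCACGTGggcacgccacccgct
MLXIP: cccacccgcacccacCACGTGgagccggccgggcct
MLXIPL: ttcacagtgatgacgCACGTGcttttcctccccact

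TXNIP (ENSG00000265972.6_7, chr1:145438490-145442635, plus strand) had a peak of both factors at its promoter. The BMAL1 peak, chr1:145438186-145438599, had a pileup of 39 fragments at its summit and a fold enrichment over the local input background of 17.7. The exact Poisson 95% interval of this fold was 12.6 to 24.2. This interval and those given for other peaks cover counting error of the pileup only, with the background held fixed. The MAX peak, chr1:145438039-145438560, had a pileup of 37 fragments and a fold enrichment of 18.8 (interval 13.2 to 25.9).

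The BMAL1 summit lay 130 bp and the MAX summit 165 bp upstream of the TXNIP TSS. The summits were thus 35 bp apart, and the peaks had 375 bp in common. The BMAL1 peak ranked above 84.3% of its list and the MAX peak above 94.9% of its own. Among the 637 MAX peaks that overlap a BMAL1 peak, whose median fold enrichment was 13.8, the TXNIP peak ranked above 74.6%. Among the 636 BMAL1 peaks that overlap a MAX peak, it ranked above 83% against a median of 10.4. The local input background at the summits was 2.2 fragments for BMAL1 and 1.97 for MAX, against genome-wide expectations of 1.54 and 1.28. Both lists were called over the same input, so these 2 folds are not independent.

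**Figure D1:**
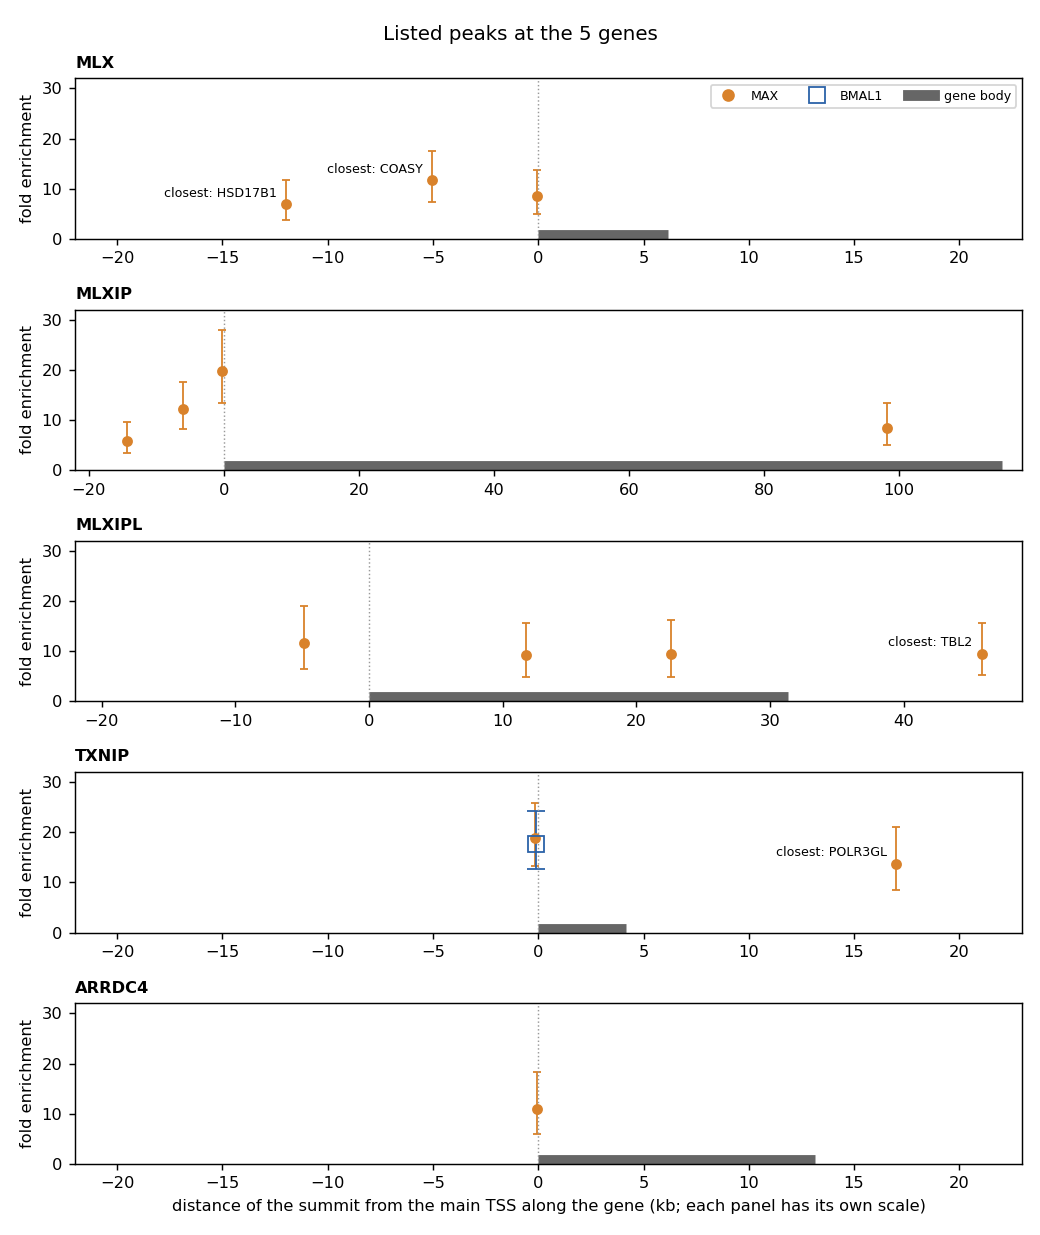
The fold enrichment over input (vertical axis) of every listed peak at the 5 genes is plotted against the distance of its summit from the main TSS in kb along the gene, with filled circles for MAX, an open square for BMAL1, grey bars for gene bodies and error bars for the exact Poisson 95% interval of the pileup. The BMAL1 peak sits on the TXNIP promoter together with the MAX peak of 18.8. For 4 of the 14 MAX peaks the closest TSS of a protein-coding transcript is that of another gene, which is named beside them.

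The canonical E-box, CACGTG, did not occur anywhere in either TXNIP peak, and neither did the E'-box, which is CACGTT on either strand and is also bound by BMAL1 dimers. Of the 756 BMAL1 peaks, 98 (13%) lacked both of these elements, with a median fold enrichment of 8.45. Only 9 of these 98 had a higher fold enrichment than the TXNIP peak. In the MAX list, peaks without either element were the more frequent kind, with 8378 of 13650 (61.4%), and 159 of them had a higher fold enrichment than TXNIP. This comparison was chosen after the sequence of the peak had been seen. Single copies of other variants of CACGTG were not searched for, apart from CACGAG. The printed TXNIP sequence holds such a variant, CACGCG, upstream of the paired element and inside both peaks.

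Both TXNIP peaks held the paired element printed above, at 42 bp from the summit of BMAL1 and 77 bp from that of MAX. It was found in a search for 2 copies of CACGTG with 5 bases of any kind between them, allowing up to 2 mismatches over the 12 fixed letters. This pattern is its own reverse complement, so both strands were covered. In the whole lists, 10.1% of the BMAL1 peaks held such a pair, as did 3.67% of those of MAX. It occurred within 300 bp of the main TSS of 2.01% of protein-coding genes. Of the 98 BMAL1 peaks without an E-box or E'-box, 4 held a pair, TXNIP included. CACGAG as 2 copies on the same strand, 5 bases apart, occurred in 1 BMAL1 peak, that of TXNIP, and in 2 MAX peaks, TXNIP included. These letters were taken from the TXNIP element, so its own peaks were bound to hold them. A single CACGAG or its reverse complement is common, since it was found in 13.8% of the BMAL1 list and 16.8% of the MAX list. At up to 1 mismatch no peak of the 5 genes held a pair, and at up to 3 mismatches 6 did, including the MAX promoter peaks of ARRDC4, MLX and MLXIP.

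A second MAX peak of TXNIP, chr1:145455273-145455771, lay 16996 bp downstream of the main TSS and beyond the end of the gene. It had a pileup of 21 fragments and a fold enrichment of 13.8 (interval 8.52 to 21.0). The closest TSS of a protein-coding transcript was that of POLR3GL, an RNA polymerase III subunit gene, at 14901 bp. A retained-intron transcript of TXNIP started slightly closer, at 14633 bp. The peak held no CACGTG and no BMAL1 peak overlapped it. The next BMAL1 peak on either side of TXNIP was 4814049 bp away, at the clock gene CIART.

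ARRDC4 (ENSG00000140450.9_6, chr15:98503933-98517063, plus strand), the other arrestin target, had 1 MAX peak and no BMAL1 peak. The MAX peak, chr15:98503583-98504144, had its summit 55 bp upstream of the TSS and rested on 14 fragments. Its fold enrichment was 10.9 (interval 5.96 to 18.3), and its background of 1.28 was at the genome-wide expectation. By fold enrichment it ranked above 62.7% of MAX peaks, but by -log10 p above 36.3% and by pileup above 14.1%, so its place relative to the middle of the list depended on the measure. The interval overlapped that of the TXNIP MAX peak, and the difference between the 2 was not tested. ARRDC4 had a CACGTG 210 bp upstream of its TSS, inside the peak and 150 bp from the summit, and another 279 bp downstream of the TSS, outside the peak. The nearest BMAL1 peak on the chromosome lay 8892165 bp from the ARRDC4 TSS. Thus, of the 2 targets, the one with canonical E-boxes at the promoter had no listed BMAL1 peak, and the one without had one.

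MLX (ENSG00000108788.12_9, chr17:40719090-40725257, plus strand), the shared dimer partner, had 3 MAX peaks and no BMAL1 peak. The peak at its own promoter, chr17:40718781-40719610, was the longest of the 14 with 830 bp and rested on 17 fragments. Its fold enrichment was 8.63 (interval 5.03 to 13.8), below the median of 9.73 of all MAX peaks. Its summit lay 52 bp upstream of the main TSS and 2 bp from the CACGTG printed above. The other peaks lay closer to the TSSs of neighbouring genes. One (chr17:40713916-40714365, fold enrichment 11.7, 23 fragments) peaked 80 bp before a TSS of the coenzyme A synthase gene COASY and the other (chr17:40706975-40707311, fold enrichment 6.97, 14 fragments) lay in a non-coding part of an exon of the steroid dehydrogenase gene HSD17B1. Neither held a CACGTG.

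MLXIP (ENSG00000175727.9, chr12:122516628-122631894, plus strand), which encodes MondoA, had 4 MAX peaks, among them the highest fold enrichment of the group. The peak at the main TSS, chr12:122515949-122516594, rested on 31 fragments, with a fold enrichment of 19.7 (interval 13.4 to 27.9) above 95.8% of MAX peaks. Its summit lay 248 bp upstream of the TSS, and its CACGTG was 86 bp from the summit. Upstream of the gene, a peak at chr12:122510462-122510897, 5974 bp before the TSS, had a fold enrichment of 12.3 on 29 fragments and no CACGTG. A further peak at chr12:122502134-122502453, 14306 bp before the TSS, had the lowest fold enrichment of all 14, 5.89 on 16 fragments, and held 2 copies of CACGTG, 34 and 149 bp from its summit. The fourth, chr12:122614688-122615088, was intronic, with its summit 387 bp from the start of an internal retained-intron transcript. It reached within 300 bp of that start and therefore also counted as a promoter peak, with a fold enrichment of 8.46 on 18 fragments. No BMAL1 peak was listed at MLXIP, and the nearest lay 153881 bp from a TSS.

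MLXIPL (ENSG00000009950.16_16, chr7:73007524-73038873, minus strand), which encodes ChREBP, was the only one of the 5 with no MAX peak at a promoter, here the 300 bp to either side of any TSS of a gene. Its main TSS also had neither an E-box nor an E'-box within 1 kb. The 4 MAX peaks at MLXIPL all had low pileups of 12 to 15 fragments, with fold enrichments between 9.17 and 11.5. They ranked above 42.0% to 68.5% of MAX peaks by fold enrichment but above only 3.15% to 21.3% by pileup. The highest, chr7:73043447-73043972, lay 4872 bp upstream of the main TSS with a CACGTG 7 bp from its summit. An intronic peak at chr7:73016184-73016512 held a CACGTG 65 bp from the summit, and another intronic peak at chr7:73027081-73027386 held none. The last, chr7:72992727-72993342, peaked 93 bp before a TBL2 TSS and met the rule only through an MLXIPL retained-intron transcript 18690 bp away. The nearest BMAL1 peak on the chromosome was 11042440 bp from an MLXIPL TSS.

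Across the group, all 5 genes had a MAX peak under the 20 kb rule, which 54.8% of protein-coding genes had, and 4 of 5 had one at a promoter, against 33.7%. At a -log10 p of at least 12, 4 of the 5 genes kept a MAX peak: the only one of ARRDC4 was lost, as was that at the MLX promoter. MLX kept only the peak beside the COASY TSS, and MLXIPL only its highest, with a -log10 p of 12.03. A BMAL1 peak was listed at 1 of 5, TXNIP, under both rules, compared with 4.97% of protein-coding genes within 20 kb or in the body and 1.63% at promoters. With 5 genes, these counts are a description only. Among the 6803 genes with a MAX promoter peak, MLXIP ranked above 92.5% and TXNIP above 91.2% by their highest promoter fold enrichment, ARRDC4 above 51.1% and MLX above 25.9%. TXNIP ranked above 81.8% of the 329 genes with a BMAL1 promoter peak.

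The fold enrichments of the 14 MAX peaks ran from 5.89 to 19.7 with a median of 10.2, beside 9.73 for the whole list, and 7 of them lay above the list's median. Few of the peaks had counting intervals that did not overlap. The intervals of the peaks at the main TSSs of MLXIP and TXNIP lay above those of 2 of the other 13 peaks, the weakest MLXIP peak and the HSD17B1 peak near MLX. In every other pair the intervals overlapped. Overlap of 2 intervals does not show that the values are alike, and no difference between peaks was tested. The intervals were wide because the MAX pileups were shallow, with a median of 16.5 fragments in the group. The lowest pileup listed was 9 fragments for MAX and 12 for BMAL1. That no BMAL1 peak was listed at MLX, MLXIP, MLXIPL or ARRDC4 does not show that binding was absent. Weaker BMAL1 binding at these genes was not tested.

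**Figure D2:**
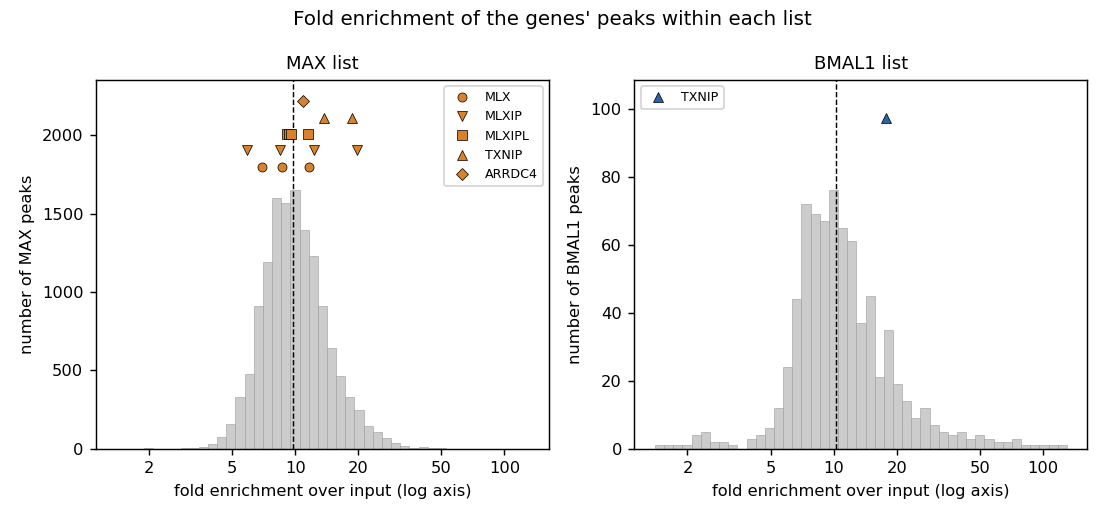
Grey bars count all MAX peaks (left) and all BMAL1 peaks (right) by fold enrichment over input on a log axis, the dashed lines give the medians of 9.73 and 10.3, and the symbols above the bars place the peaks of the 5 genes. The MAX peaks of the genes spread on both sides of the median, with the MLXIP and TXNIP promoter peaks at 19.7 and 18.8, and the only BMAL1 peak, at TXNIP, lies at 17.7.

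Sequence at the MAX peaks was mixed. CACGTG occurred within 100 bp of the summit in 5 of the 14, compared with 21.2% of all MAX peaks, and anywhere in the peak in 6, compared with 29.8%. The fold enrichments were alike, with a median of 10.1 in the 6 peaks with CACGTG and 10.6 in the 8 without, with ranges of 5.89 to 19.7 and 6.97 to 18.8. CACGTG lay within 300 bp of the main TSS at 2 of the 5 genes, MLX and ARRDC4, compared with 12.6% of protein-coding genes. The GC content of the 200 bp at the summits ran from 50.5% to 78.5%, and was highest at the MLXIP promoter. The median was 60.5% for all MAX peaks.

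A feature shared by the main TSSs of TXNIP, ARRDC4, MLX and MLXIP that the rule did not use was the CCAAT box, the element bound by NF-Y. Searched as CCAAT on either strand, it occurred in all 4 MAX peaks at these TSSs, 10 times in total, and in 7 of the 14 MAX peaks, compared with 40.8% of all MAX peaks. CCAAT is frequent near TSSs in general, with 48.1% of protein-coding genes holding it within 300 bp of the main TSS. No share was computed for MAX peaks at promoters alone, so the 4 peaks have no matched comparison. In the TXNIP promoter the nearest copy was 6 bp from the summit of BMAL1 and 25 bp from that of MAX, closer to both than the paired element. The ARRDC4 peak held 4 copies, one of them 8 bp from its summit, and the MLX peak had one 10 bp from its summit. The MLXIP peak held 1, at 206 bp. The search was chosen after the sequences had been seen, and a match of 5 letters does not show binding.

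**Figure D3:**
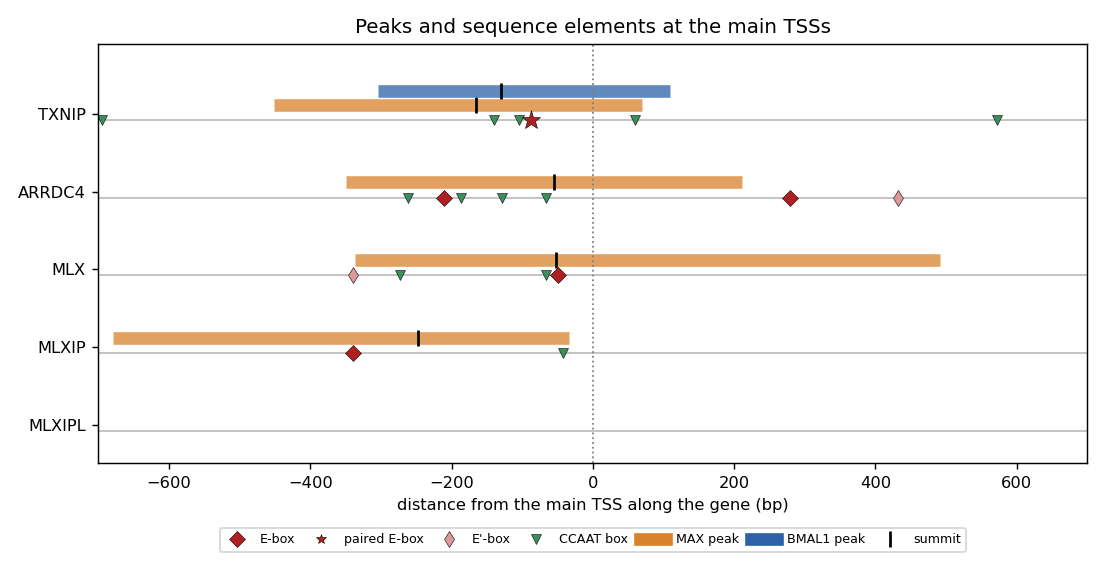
Peaks (bars, with a tick at the summit) and sequence elements (symbols on the grey lines) are drawn to scale by their distance in bp from the main TSS along each gene. The BMAL1 and MAX peaks of TXNIP both span the paired E-box 88 bp upstream of the TSS, the MAX peaks of ARRDC4, MLX and MLXIP each hold a CACGTG, and MLXIPL has neither a peak nor an element in this window.

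Other genes of the pathway were read in the same way. Of the 6 alpha-arrestins, all had a MAX peak in the body or within 20 kb, 5 had one at a promoter, and 1, TXNIP, had a BMAL1 peak. The shares over all protein-coding genes beside which these and the following counts stand were 54.8% for a MAX peak, 33.7% for one at a promoter and 4.97% for a BMAL1 peak. The highest promoter fold enrichments of MAX were 18.8 at TXNIP, 14.03 at ARRDC2 and 10.9 at ARRDC4. Of the 20 targets ascribed to the glucose response, which range from glycolysis to lipid synthesis, 15 had a MAX peak, against 54.8% of all genes, and 10 had one at a promoter, against 33.7%. The median of the highest promoter fold enrichment was 10.9, close to the median of 10.8 over all genes with a MAX promoter peak. After TXNIP, the highest were the zinc finger factor gene KLF10 with 15.99 and ACLY, the gene of ATP citrate lyase, with 13.5. A BMAL1 peak was listed at 1 of the 20, TXNIP, a share near the 4.97% of all genes, so the count is no result about the glucose response targets.

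The 5 dimer partners of MLX, among them MLXIP and MLXIPL, included the strongest MAX promoters among the listed genes. The repressor genes MNT, MXD1 and MXD4 had promoter fold enrichments of 25.7, 25.1 and 23.4, above 97.6%, 97.4% and 96.2% of the genes with a MAX promoter peak. MNT also had 2 BMAL1 peaks, with fold enrichments of 7.69 and 6.58, both below the 17.7 at TXNIP and both overlapping a MAX peak. The MNT peak of 6.58 counted as a promoter peak, as did the BMAL1 peak of TXNIP. In the list on glucose uptake and thioredoxin, all 11 genes had a MAX peak, against 54.8% of all genes, 9 had one at a promoter, against 33.7%, and 2 had a BMAL1 peak, against 4.97%. The highest there were PFKFB3, a regulator of glycolysis, with 18.4, the hexokinase gene HK2 with 17.6 and SLC2A3, which encodes a glucose transporter, with 17.4. BMAL1 was listed 2194 bp upstream of a PFKFB3 TSS with a fold enrichment of 9.21, and 8146 bp upstream of an SLC2A3 TSS with 15.2, where FOXJ2 was the closest gene. Neither lay at a promoter of these genes.

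**Figure D4:**
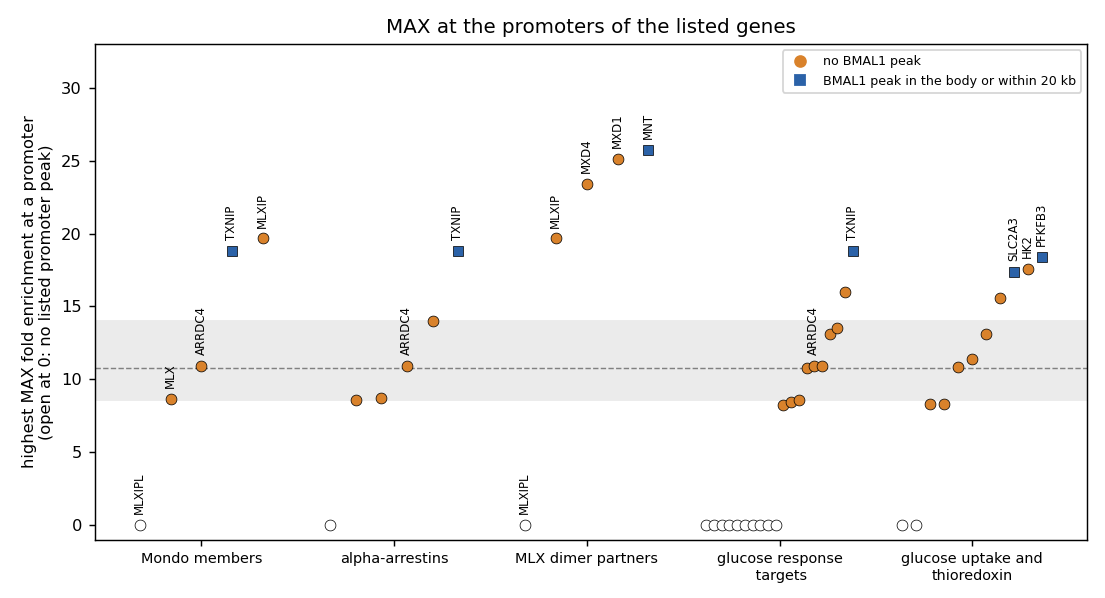
Each symbol is a gene of a fixed list, placed by its highest MAX fold enrichment within 300 bp of a TSS, with blue squares for genes that have a BMAL1 peak in the body or within 20 kb, open circles at 0 for genes without a MAX promoter peak, and the dashed line and grey band for the median and quartiles over all 6803 genes with one. TXNIP is the only blue square among the alpha-arrestins and the glucose response targets, and MNT, MXD1 and MXD4 lie highest at 23.4 to 25.7.

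By the highest fold enrichment in each list, the gene most like TXNIP was CTNNA1, which encodes an alpha-catenin, with 19.0 for MAX and 18.2 for BMAL1. The distance was 0.043 on the log2 scale, over 2 libraries and among 970 other genes with peaks in both. ARRB2, the gene of a beta-arrestin, and its neighbour CXCL16 followed at a distance of 0.058, with the same 18.05 for MAX and 17.6 for BMAL1. The values of all 3 genes lie inside the counting intervals of the TXNIP peaks, which follows from choosing the closest genes by these values.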

How the data were processed

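The deposited data were 1 peak list for BMAL1 and 1 for MAX, called by the authors with MACS2 2.0.9 against the same input after alignment on hg19 with BWA 0.6.2. In these lists the deposited pileup is an unscaled signal, the height of fragments extended to 300 bp at the summit. The fold enrichment is the authors' ratio of this pileup to the local input background. Each peak's p-value and q-value were deposited as -log10 by the authors. The headers give a p cutoff of 1e-05 and the methods 1e-08. The lowest -log10 p listed was 5.01 for MAX and 6.34 for BMAL1, so the deposited lists were not cut at 1e-08. The shares over all genes include such weaker peaks, while none of the 14 MAX peaks of the 5 genes had a -log10 p below 8. Per the file headers, up to 2 tags at 1 position were kept for BMAL1 and 1 for MAX. All listed peaks were used, and their positions were checked to lie within the GRCh37 chromosomes.

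Peaks were assigned with GENCODE release 44 mapped to GRCh37, using every transcript's TSS. The closest gene of a peak was read from the TSSs of protein-coding transcripts only. The main TSS was that of the canonical transcript, or for MLXIP the 5' end of the gene. Promoter peaks overlapped, by 1 bp or more, a window reaching 300 bp from a TSS in both directions. Percentiles give the share of the list with lower values. Intervals are exact Poisson at 95%. Motif and assignment steps were tested on simulated data. The genes, the gene lists and the rule for named genes (all members, neighbours with a closer TSS, listed genes with a BMAL1 peak, the 3 highest MAX promoters of each list and the 3 genes most like TXNIP) were chosen with earlier results of these data known. The CCAAT search and the counts of peaks like that of TXNIP were added after the sequences were seen. Alternatives covered the p threshold, window, promoter and overlap rules, motif definitions and the measure ranked. Python 3.11.15, pandas 2.3.3, scipy 1.17.1 and pysam 0.24.0 were used.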

Additional observations from a re-analysis of the deposited data

How the results depend on the processing

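With 1 library per antibody, no replicate could be left out, and no paired analysis was possible because no test was made. Of 41 alternative counts, 36 stayed within 1.5 times the reported count. The 14 MAX peaks became 6 at a -log10 p of at least 12, where 4 genes in place of 5 had one and ARRDC4 had none, and 23 with 50 kb around a TSS. At that -log10 p, MLX had only the peak beside the COASY TSS. The 5 peaks with CACGTG near the summit became 3 in a 100 bp window. The 2 peaks with a paired E-box became 0 at up to 1 mismatch and 6 at up to 3. The BMAL1 peak at TXNIP and its overlap with MAX were present under each alternative tried. With a -log10 p of 35.15 and a summit 130 bp from the TSS, it could not be lost under these thresholds and windows. Most of the 36 counts rest on this peak and were therefore bound to stay. The MAX counts at a -log10 p of at least 8 were bound to stay as well, since no MAX peak of the genes was below it. The count of MAX promoters was not tried at a -log10 p of at least 12. The promoter peaks of ARRDC4 and MLX, at 11.01 and 11.32, lie below that threshold. Ranking by -log10 p or pileup left all 30 percentiles within the counting interval of the fold enrichment, but those intervals are wide (5.95 to 94.2 for ARRDC4) and the moves were large: by pileup, ARRDC4 went from 62.7 to 14.1, the peaks of MLXIPL from 68.5, 42.0, 43.8 and 46.7 to 21.3, 7.55, 3.15 and 21.3, and the weakest peak of MLXIP from 5.18 to 29.4. At TXNIP the promoter peaks ranged from 94.9 to 96.1 for MAX and 77.9 to 84.3 for BMAL1.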
